A study of Rattus norvegicus with 6 samples.

Results

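The minichromosome maintenance (MCM) helicase genes and the genes that load this helicase at replication origins were followed in a keratinocyte line after heavy-ion irradiation. The set comprised 10 listed genes: Mcm2, Mcm3, Mcm4, Mcm5, Mcm6, Mcm7, Mcm10, Cdc6, Cdt1 and Orc1. A gene entered where the array's annotation gave a probe set, the unit that reads a transcript, exactly 1 symbol from that list. This held for 9 of the 10 genes, of 14217 genes named in this way on the array, and through 10 probe sets. Cdc6 was named by no such probe set and is not analysed here. Mcm10 had 2 probe sets, and the brighter was taken as its main value. All 9 genes passed the filter on low values, as did 10354 genes in all.

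The cells were an immortalized rat keratinocyte line, 1 line derived from dorsal skin of newborn male Sprague-Dawley (CD) rats, so results describe that line and not skin. The 3 unirradiated samples were without treatment, and the other 3 were exposed to 3 Gy of 56Fe ions at 1.01 GeV per nucleon, heavy charged particles of the kind met in space, here from a NASA accelerator. Each sample was read on 1 Affymetrix rat array. By title, the study concerned expression changes and cell cycle arrest caused by these ions. The time between exposure and RNA extraction and the growth conditions are not given in the labels. Whether replicates came from separate cultures is not stated, so the p-values reflect spread between these 6 samples alone, and that spread may be technical.

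Origin licensing is the loading of the helicase onto DNA before S phase. The origin recognition complex, whose largest subunit is ORC1, binds DNA and, with CDC6 and CDT1, loads rings built of the subunits MCM2 to MCM7, which stay idle until kinases start the origin in S phase. MCM10 then helps to activate the ring, and geminin and ubiquitin ligases prevent loading again in the same cycle. In epidermis these genes are expressed mainly in proliferating basal keratinocytes, and many are textbook targets of the E2F transcription factors.

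The promoters of the 3 genes that rose after irradiation, Mcm7, Mcm3 and Mcm5, are shown because each holds matches to E2F motif letters. Such matches were not particular to these 3 genes, as given below. The sequences come from RefSeq, rat build GRCr8, and run from 250 bases before to 30 bases after the annotated start, on the strand of the gene. Capitals mark matches, on either strand, to the E2F motif letters TTTCCCGC, TTTGGCGC, TTTCGCGC or TTTGCCGC. Mcm7 lies on the minus strand at chr12:22163149-22163428, Mcm3 on the minus strand at chr9:30733717-30733996 and Mcm5 on the plus strand at chr19:13488563-13488842.
Mcm7: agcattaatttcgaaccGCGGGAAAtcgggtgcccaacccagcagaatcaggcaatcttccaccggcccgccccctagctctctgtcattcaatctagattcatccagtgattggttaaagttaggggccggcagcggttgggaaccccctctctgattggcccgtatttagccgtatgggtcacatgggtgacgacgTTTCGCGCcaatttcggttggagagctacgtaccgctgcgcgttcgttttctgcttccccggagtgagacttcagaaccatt
Mcm3: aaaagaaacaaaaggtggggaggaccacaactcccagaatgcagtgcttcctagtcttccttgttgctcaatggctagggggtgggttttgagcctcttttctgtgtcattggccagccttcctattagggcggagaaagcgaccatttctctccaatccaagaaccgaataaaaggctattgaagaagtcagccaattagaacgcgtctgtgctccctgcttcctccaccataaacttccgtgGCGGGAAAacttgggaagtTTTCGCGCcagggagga
Mcm5: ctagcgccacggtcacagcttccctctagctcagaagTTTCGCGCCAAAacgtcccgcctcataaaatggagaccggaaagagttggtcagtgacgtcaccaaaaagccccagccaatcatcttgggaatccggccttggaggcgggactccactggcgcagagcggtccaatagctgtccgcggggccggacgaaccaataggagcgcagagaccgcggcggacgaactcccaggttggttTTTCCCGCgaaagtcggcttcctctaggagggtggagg
In Mcm7 the matches began 233 and 52 bases before the start. In Mcm3, 1 match crossed the start, from 6 bases before to 2 bases after it, and another began at base 14 after it. Of the 3 matches in Mcm5, 2 overlapped each other far upstream, the earlier beginning 213 bases before the start, and the last ended on the base before the start.

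Promoter sequences were matched for 7 of the 9 genes; Mcm4 and Orc1 had no entry. In the 300-base window, which ends 50 bases after the start, 6 of the 7 promoters (85.7%) held at least 1 of the 4 E2F letter strings, against 716 of 33469 promoters of the table (2.14%). The promoters of the table were not limited to genes named or tested on the array. The matches of the other 3 genes are shown with 10 bases on each side, because they show the same core in different settings.
Mcm2: gtgacccggtTTTCGCGCgaaaacccgt
Mcm6: ggcgtctgctTTTGGCGCgaaattagcg
Cdt1: cgcgaaaattGCGCGAAAtccgcgggaa
In Mcm2 and Mcm6 a second match on the opposite strand overlapped the capitals, and Cdt1 had a second match beginning at base 33 after its start. Mcm10 held none of the 4 strings, and other forms of the E2F motif were not searched. The CCAAT box, searched as CCAAT on both strands, stood in 5 of the 7 promoters (71.4%), against 12549 of 33469 in the table (37.5%). In Mcm7, a CCAAT box shared 1 base with the E2F letters. These matches describe the sequence of these windows, and binding was not measured.

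The arrays were alike in scale and held the markers of the labelled cell type. Their trimmed mean intensity was 150.04 to 150.05, as values scaled to a common mean before deposit would give, so it cannot check likeness. Median intensities were 30.8 to 33.6. The log2 values correlated at 0.984 to 0.988 within groups and 0.98 to 0.984 between groups. Of 12 keratinocyte markers, 11 were named and tested, and each exceeded an intensity of 50 on at least 1 array. Of 19 named markers of fibroblasts, melanocytes, immune and endothelial cells, 18 stayed under an intensity of 50 on every array, the exception being Col3a1, and 0 were listed at 0 throughout. The keratinocyte markers moved with the irradiated group: limma called 5 of 11 lower and 0 higher. Over all 10354 tested genes it called 0.773% lower and 2% higher. The keratinocyte markers summed to 29730 to 34600 without and 24480 to 27040 with irradiation. The markers of other cell types summed to 554 to 610 without and 451 to 508 with irradiation. Col3a1 carried that difference, at 413 ± 39.1 without and 295 ± 13.9 with irradiation (SD, n = 3). The dim collagen genes Col1a1 (17.3 and 36.1) and Col1a2 (4.43 and 10.5) had higher irradiated means without overlap; limma did not call Col1a1, and Col1a2 was not tested. The part of these shifts in the results below was not tested. Over the whole array, 385 of 18632 tested probe sets (2.07%) passed limma's test, whose threshold was a Benjamini-Hochberg adjusted p of 0.05.

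After irradiation, mRNA of 3 of the 6 ring subunits was higher, and every measured gene of the set had a mean above that of the unirradiated arrays. Mcm7, Mcm3 and Mcm5 rose 1.54-fold, 1.53-fold and 1.45-fold by ratio of mean intensities. Mcm2, Mcm4, Mcm6, Mcm10, Cdt1 and Orc1 did not pass the test. Limma thus called 3 of 9 genes higher and 0 lower, where it called 2% of all 10354 tested genes higher and 0.773% lower. At an unadjusted p under 0.05, 7 of 9 were higher and 0 lower, where 8.77% of all tested genes were higher. The median change of the 9 genes was 0.42 on the log2(intensity + 16) scale, used for every log2 change below, against -0.00097 over all tested genes. Of the 9, 5 had every irradiated value above every unirradiated one, where 11.8% of all tested genes did. The genes were chosen with earlier results of these data known, so these counts are not independent of the values. In cells measured in bulk, more cells in a phase that expresses these genes and more mRNA per cell cannot be told apart.

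**Figure D1:**
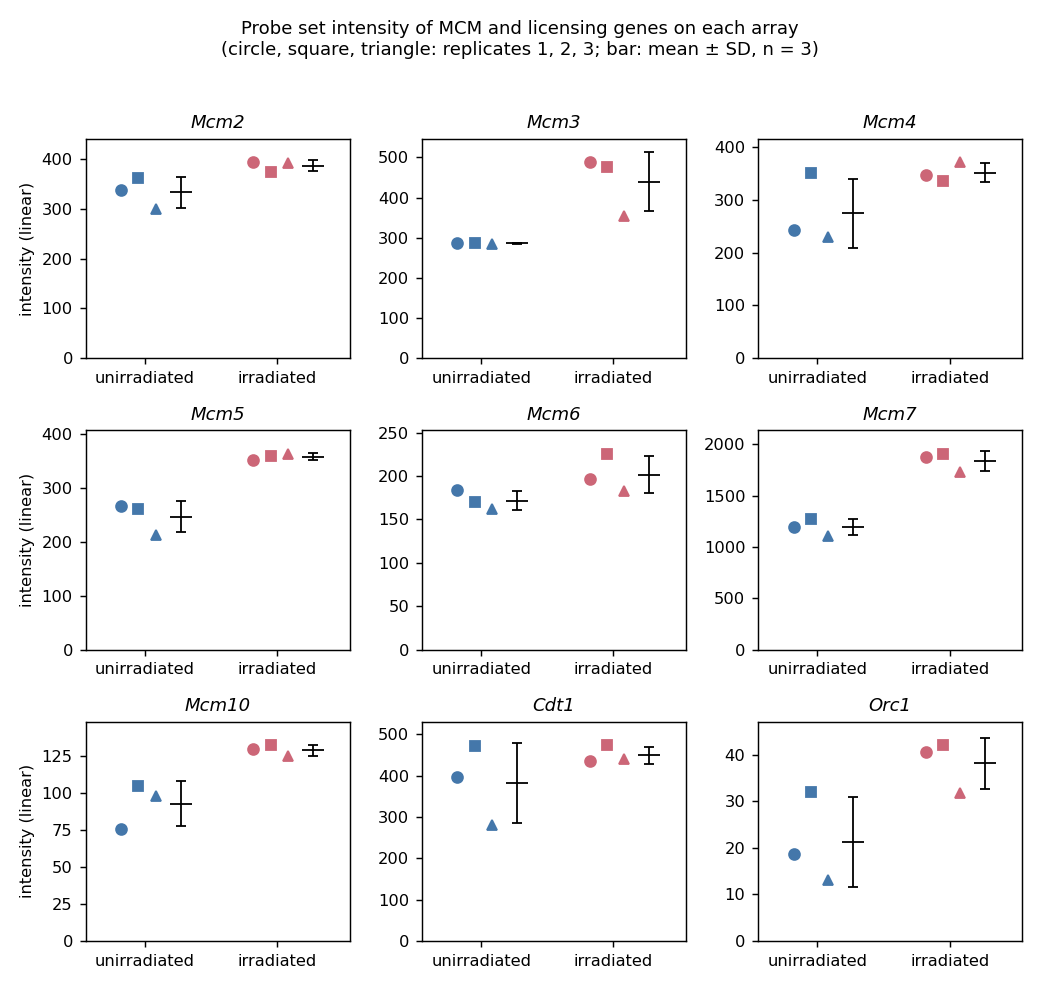
Intensity of the main probe set (linear scale, vertical axis from 0) of each of the 9 genes on the 3 unirradiated (blue) and 3 irradiated (red) arrays, with the mean ± SD of each group in black; the scale differs between panels. Mcm7, Mcm5, Mcm3, Mcm2 and Mcm10 have no overlap between groups, while in Mcm4, Mcm6, Cdt1 and Orc1 at least 1 unirradiated array reaches the irradiated values.

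Mcm7, a ring subunit that forms part of the active ATPase core of the helicase, read 1199.5, 1272.7 and 1109.3 without irradiation and 1875.9, 1907.8 and 1731.7 with it. The lowest irradiated array stood 459 intensity units above the highest unirradiated one. The mean went from 1194 ± 81.9 to 1838 ± 93.8 (SD, n = 3), a log2 change of 0.62 ± 0.08 (SE, adjusted p = 0.00124 by limma). This change lay at percentile 98.55 of those of all tested genes.

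Mcm3, the subunit that neighbours MCM5 in the ring, read 285.9, 288.1 and 284.6 without irradiation and 487.4, 475.3 and 354.5 with it. The unirradiated arrays were nearly equal, and irradiated replicate 3 lay well under the other two irradiated arrays while still above all unirradiated ones. Its log2 change was 0.58 ± 0.12 (SE, adjusted p = 0.0216 by limma). Without irradiated replicate 3 it was 0.72, and leaving out any of the other 5 arrays ended the call (limma adjusted p = 0.0602 to 0.135, log2 changes of 0.50 to 0.58).

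Mcm5, which sits beside MCM2 at the point where the ring opens for DNA, read 265.6, 260 and 213 without irradiation and 351.1, 359.1 and 363 with it. The irradiated arrays were close together, with a coefficient of variation of 1.70%, against 11.7% in the unirradiated group, and the groups did not overlap. Its log2 change was 0.52 ± 0.10 (SE, adjusted p = 0.0199 by limma). The call of Mcm5 ended without unirradiated replicate 3 or any 1 irradiated array (limma adjusted p = 0.0534 to 0.104). Without an intensity trend in the variance, Mcm7 kept its call (limma adjusted p = 0.04) while Mcm3 (0.111) and Mcm5 (0.0909) lost theirs.

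Mcm2, the partner of MCM5 at that opening and a binder of histones, read 339, 362.4 and 300.4 without irradiation and 393.8, 375.6 and 393.3 with it. The groups did not overlap, but only 13.2 intensity units separated them. Its log2 change was 0.21, with a 95% confidence interval from 0.0040 to 0.41 and a limma adjusted p = 0.362. That interval did not overlap the interval of Mcm7, 0.44 to 0.79; a difference between the 2 changes was not tested.

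Mcm4, part of the core with MCM6 and MCM7, read 243.8, 350.1 and 229.1 without irradiation and 347.4, 335.1 and 370.8 with it. Unirradiated replicate 2 fell among the irradiated arrays, and the other unirradiated arrays lay far below them. The log2 change of Mcm4 was 0.36 (95% confidence interval 0.07 to 0.66; limma adjusted p = 0.253). Without unirradiated replicate 2 it was 0.54 and passed (limma adjusted p = 0.0258), and without unirradiated replicate 3 it was 0.25.

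Mcm6, the remaining subunit, read 183.3, 170.3 and 161.5 without irradiation and 196.4, 225.5 and 183 with it. The highest unirradiated array slightly exceeded the lowest irradiated one, so the groups overlapped. Its log2 change was 0.21 (95% confidence interval -0.03 to 0.45; limma adjusted p = 0.458). Its probe set is of a kind, marked _a_at, that reads several transcript forms of 1 gene.

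Among the loaders, Orc1, the subunit of the origin recognition complex whose level varies over the cell cycle, was dim. It read 18.6, 32 and 13.1 without irradiation and 40.5, 42 and 31.8 with it. Unirradiated replicate 2 lay just above irradiated replicate 3, and the other arrays were separated. All its values lay under 50, so a ratio of means is not a reliable size here; the log2 change was 0.57 (95% confidence interval 0.13 to 1.00; limma adjusted p = 0.222). With so dim a gene the size depends on the pseudocount: it was 0.89 with a pseudocount of 1 and 0.27 with 64.

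Cdt1, the loader that geminin blocks, read 396.9, 471.7 and 279.6 without irradiation and 435.8, 473.5 and 439.6 with it. Unirradiated replicate 2 was nearly as high as the highest irradiated array, so the groups overlapped. The log2 change was 0.25 (95% confidence interval -0.07 to 0.57; limma adjusted p = 0.505). It was 0.05 without unirradiated replicate 3 and 0.41 without unirradiated replicate 2.

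Mcm10, which acts after licensing, read 75.9, 105.2 and 98 without irradiation and 129.8, 132.5 and 125.1 with it. The groups did not overlap, and the unirradiated group was the more spread. Its log2 change was 0.42 (95% confidence interval 0.13 to 0.71; limma adjusted p = 0.159). The dimmer probe set of Mcm10 read 70.2, 71 and 80.8 against 125.2, 121.3 and 123.2, a log2 change of 0.63 that passed (limma adjusted p = 0.0166). Mcm10 was also called with the log2 values of its 2 probe sets averaged (0.53, limma adjusted p = 0.0179). By that rule 4 of the 9 genes were called.

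**Figure D2:**
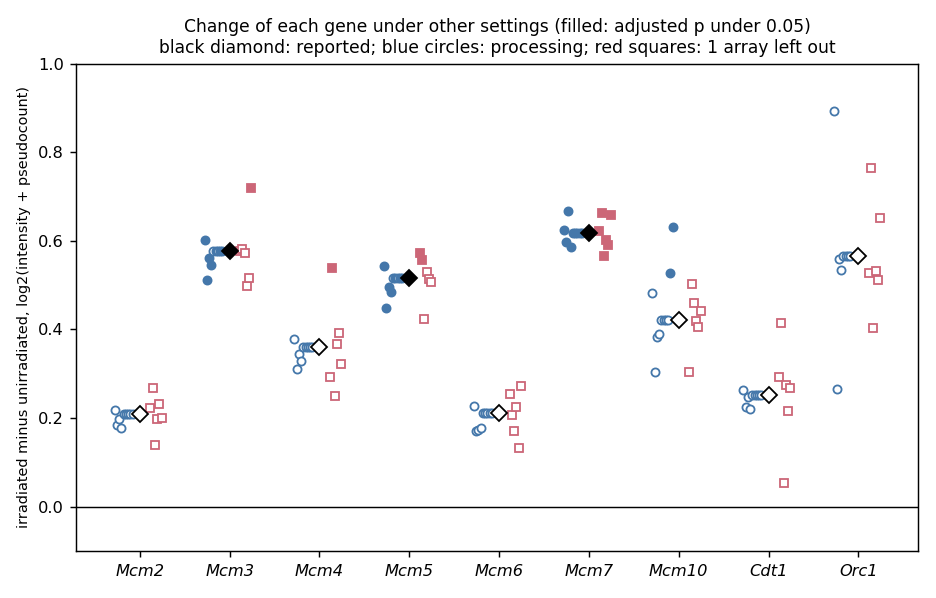
Log2 change, irradiated minus unirradiated (vertical axis), of each of the 9 genes as reported (black diamonds), under other processing choices (blue circles) and with 1 array left out (red squares); filled symbols have a limma adjusted p under 0.05. Every value is above 0, Mcm7 is filled throughout, and Orc1 and Cdt1 spread the widest.

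In the mean of the 9 genes, the unirradiated arrays differed among themselves more than the irradiated ones. Relative to the unirradiated mean of each gene, the 9 genes averaged -0.02, 0.17 and -0.15 on unirradiated replicates 1, 2 and 3, and 0.43, 0.46 and 0.35 on irradiated replicates 1, 2 and 3 (log2 deviations). The median deviation of all tested genes on these arrays stayed between -0.0065 and 0.0094. Unirradiated replicate 3 was the lowest of its group in 8 of the 9 genes, and unirradiated replicate 2 the highest in 7. With unirradiated replicate 3 left out, 1 of 9 genes was called, Mcm7, with a median log2 change of 0.40. The same count of 1 was found without irradiated replicate 1 or irradiated replicate 2, with medians of 0.42 and 0.41.

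**Figure D3:**
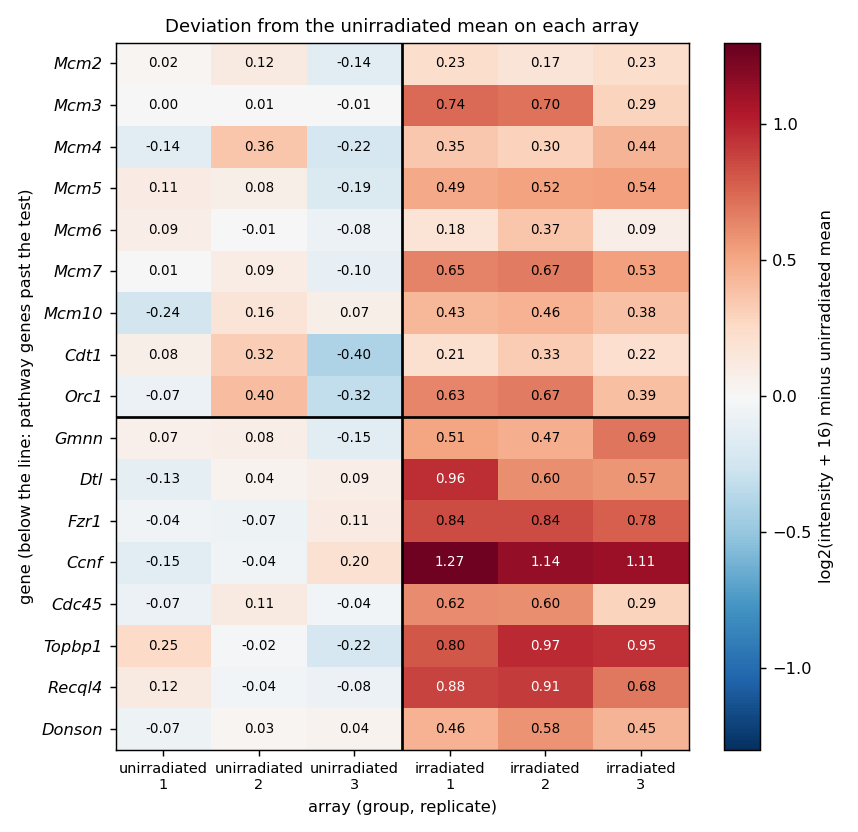
Deviation of each gene (rows) from its unirradiated mean on each of the 6 arrays (columns), in log2(intensity + 16), printed in each cell and coloured red above and blue below that mean. The 9 genes of the set stand above the horizontal line, and the 8 pathway genes past the test, shown because they passed, below it; all irradiated cells are red, from 0.09 in Mcm6 to 1.27 in Ccnf.

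The other genes of licensing and origin firing were taken from a list of 39, of which 34 were named by a single symbol and all 34 tested; Skp2, Cdc7, Dbf4, Gins2 and Ticrr are not analysed here. Of the 34, limma called 8 higher and 0 lower, against the 2% and 0.773% of all tested genes, and 26 did not pass. At an unadjusted p under 0.05, 20 were higher, where 8.77% of all tested genes were, and 1 was lower. The median log2 change of the list was 0.29, and 29 of 34 values were above 0, where 49.8% of all tested genes were. In 20 of the 34 every irradiated value was above every unirradiated one, where this held for 11.8% of all tested genes. This list too was chosen with earlier results of these data known, so its counts are not independent of the values. Of the promoters of this list in the RefSeq table, 12 of 28 (42.9%) held an E2F string. The count of 8 was 4 without an intensity trend in limma, 5 without a filter on low values, and 5 without irradiated replicate 1 or irradiated replicate 2.

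**Figure D4:**
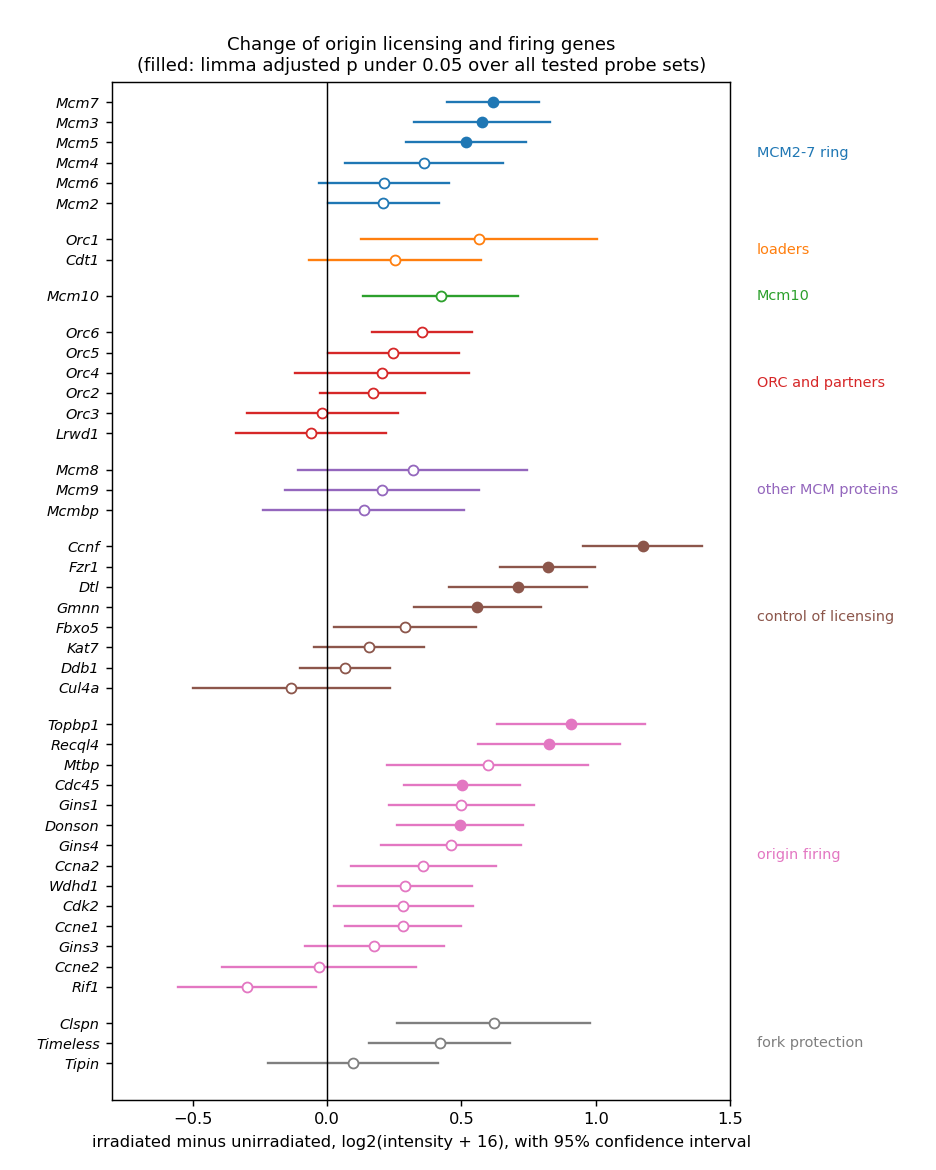
Log2 change, irradiated minus unirradiated (horizontal axis, log2(intensity + 16)), with its 95% confidence interval for the 9 genes of the set and the 34 other licensing and firing genes, grouped by role; filled points passed limma's adjusted p of 0.05. Of the ring subunits, Mcm7, Mcm3 and Mcm5 are filled, between 0.52 and 0.62, and 3 are open, between 0.21 and 0.36. A difference between filled and open subunits was not tested. No point below 0 is filled.

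Of the origin recognition complex and its partner, 0 of 6 genes passed limma in either direction, with 2 higher and 0 lower at an unadjusted p under 0.05. Over all tested genes, limma called 2% higher and 0.773% lower, and 8.77% were higher at that unadjusted p. So short a list cannot show fewer calls than these shares. Orc6, its smallest subunit, was at 455 ± 34.1 without and 585 ± 12.6 with irradiation (SD, n = 3), with no overlap between groups and a log2 change of 0.35 (limma adjusted p = 0.0596). It passed with a filter at the 60th percentile (limma adjusted p = 0.0414). A dimmer probe set of Orc6 had a log2 change of 0.71 (limma adjusted p = 0.0197) and another of 0.08 (0.909), so its probe sets disagreed in size. The subunit gene Orc3 had a log2 change of -0.02, and Lrwd1, which encodes a protein that steadies the complex on chromatin, of -0.06. Their 95% confidence intervals were -0.30 to 0.26 and -0.34 to 0.22. Mcm8, Mcm9 and Mcmbp, whose proteins are relatives or partners of the ring, were named after their values were seen. Their log2 changes were 0.32, 0.21 and 0.14, and limma called 0 of these 3, with 0 at an unadjusted p under 0.05. Mcm8 was dim, at 12.5 to 32.1 over the arrays. Its unirradiated mean was 15.7, under the filter on low values, and its irradiated mean was 23.8. Mcm8 thus entered the tested genes only through its irradiated arrays. Its positive change is therefore no separate support for the counts of the list. Its change was 0.55 with a pseudocount of 1 and 0.14 with 64.

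Genes whose products control licensing, in either direction, held 4 calls among 8 tested, all higher, where 2% of all tested genes were called higher. Ccnf encodes cyclin F, a ubiquitin ligase subunit that targets CDC6 among other proteins. It read 280.9, 303.9 and 361.8 without irradiation and 778.7, 713.4 and 695.4 with it, and the groups stood far apart. Its mean rose 2.31-fold, with a log2 change of 1.17 ± 0.10 (SE, adjusted p = 1.3e-04 by limma).

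Dtl encodes CDT2, the receptor through which CDT1 is degraded in S phase. It read 217.7, 246.5 and 254.9 without irradiation and 480.8, 370.7 and 362.9 with it. All irradiated values were higher, and irradiated replicate 1 exceeded the others of its group by over 100 units. Its log2 change was 0.71 ± 0.12 (SE, adjusted p = 0.00646 by limma), and its call ended without an intensity trend (0.0575).

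Gmnn encodes geminin, the inhibitor that binds CDT1. It read 194.6, 197.1 and 165.4 without irradiation and 270.3, 263.1 and 309.3 with it, without overlap. Gmnn rose by a log2 change of 0.56 ± 0.11 (SE, adjusted p = 0.0179 by limma). This call ended without unirradiated replicate 3 or any 1 irradiated array (limma adjusted p = 0.0566 to 0.0714). A second, very dim probe set of Gmnn was not tested.

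Fzr1 encodes CDH1, with which the anaphase-promoting complex clears geminin in G1 and so permits licensing. It read 514, 505.7 and 573.2 against 964.5, 964 and 918.9. It rose by 0.82 ± 0.08 (SE, adjusted p = 2.1e-04 by limma), and its other 2 probe sets rose by 0.80 and 0.61. Ddb1, the adaptor that links CDT2 to its ligase, had a log2 change of 0.07 (95% confidence interval -0.10 to 0.23). The other probe sets of Ddb1 had log2 changes of 0.10 and -0.08 and did not pass. Cul4a, of the same control list, was named after its values were seen and was not recomputed under other settings. It had a log2 change of -0.13 (95% confidence interval -0.50 to 0.23) and did not pass. Dtl thus passed while Ddb1 and Cul4a did not, and differences between them were not tested.

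Among genes of origin firing, 4 of 14 tested were called, all higher, where 2% of all tested genes were called higher. Topbp1, a scaffold for the start of replication that also activates the ATR checkpoint kinase, read 169.8, 138.2 and 118.2 without irradiation and 257.4, 291.5 and 287 with it. The groups did not overlap, and the log2 change was 0.91 ± 0.13 (SE, adjusted p = 0.00219 by limma). The dimmer probe set of Topbp1 was at 0.44, short of the threshold.

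Recql4, a helicase of the RecQ family that acts when origins fire, read 95.9, 84.3 and 81.8 without irradiation and 174.3, 177.7 and 149.8 with it. The irradiated mean was 1.92 times the unirradiated mean, with a log2 change of 0.83 ± 0.12 (SE, adjusted p = 0.00332 by limma). Both groups were tight beside that gap.

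Cdc45 encodes the partner that, with the GINS complex, turns the loaded ring into the active helicase. It read 783.8, 892.8 and 802.2 without irradiation and 1273.8, 1261.9 and 1009.9 with it. As in Mcm3, irradiated replicate 3 was the lowest of its group. The log2 change was 0.50 ± 0.10 (SE, adjusted p = 0.0197 by limma), and it was 0.61 without that array. Leaving out unirradiated replicate 1, unirradiated replicate 3, irradiated replicate 1 or irradiated replicate 2 ended the call (limma adjusted p = 0.0635 to 0.109). Its other 2 tested probe sets had log2 changes of 0.46 and 0.32 and did not pass. With the log2 values of its tested probe sets averaged, Cdc45 was not called either (0.43, limma adjusted p = 0.0983).

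Donson, whose product helps to assemble the active helicase, read 119.4, 128.5 and 130.3 without irradiation and 178.8, 196.4 and 177.4 with it. The groups did not overlap. Its log2 change of 0.49 ± 0.11 (SE, adjusted p = 0.0351 by limma) passed narrowly, and without any 1 of the 6 arrays it did not pass (limma adjusted p = 0.0598 to 0.177).

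The GINS subunit genes Gins1, Gins4 and Gins3, named here after their values were seen as were Rif1 and Clspn below, had log2 changes of 0.50, 0.46 and 0.17 and did not pass. Ccne2, of the cyclin E pair that drives entry into S phase, was dim, at 25.6 to 35.4 over the arrays. It had a log2 change of -0.03 (95% confidence interval -0.39 to 0.33), and its dimmer probe set one of 0.20, short of the threshold. Ccne1, the brighter gene of that pair, was named after its values were seen and not recomputed under other settings. It read 162, 171 and 170 without irradiation and 200.8, 206 and 215.5 with it, without overlap. The log2 change of Ccne1 was 0.28 (95% confidence interval 0.07 to 0.50) and did not pass (limma adjusted p = 0.216). Rif1, which holds origins back until late in S phase, was the 1 gene of 34 with all irradiated values below the unirradiated ones, a pattern found in 10.1% of all tested genes. It read 134.4, 122.5 and 120.1 against 91.8, 100.7 and 104.9, a log2 change of -0.30 that did not pass (limma adjusted p = 0.284). Its dimmer probe sets overlapped between groups, at -0.29 and -0.06.

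Of the 3 fork protection genes, limma called 0 in either direction, with 2 higher at an unadjusted p under 0.05. Over all tested genes, limma called 2% higher and 0.773% lower, and 8.77% were higher at that unadjusted p. Clspn, which encodes the checkpoint mediator claspin, had a log2 change of 0.62 (95% confidence interval 0.26 to 0.98; limma adjusted p = 0.0868).

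The gene profiles most like that of the set were found by distance from the mean centred log2 profile of the 9 genes over the 6 arrays. The 5 nearest of 10345 other genes were Cenpu (root mean square distance 0.036), Enkd1 (0.046), Trip13 (0.049), Orc6 (0.050) and Lig1 (0.050), where the median gene was 0.27 away. The members themselves lay 0.093 (Mcm5) to 0.162 (Mcm3) from their own mean. Cenpu encodes a centromere protein, Trip13 an ATPase of the spindle checkpoint, and Lig1 the ligase that joins Okazaki fragments. Lig1 read 230, 246.2 and 216.9 without irradiation and 316.6, 320.2 and 309.5 with it, the same order of unirradiated arrays as Mcm7. These genes were selected for likeness on these arrays, so their changes carry no test here.

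Of the context genes, Mki67, Ccnb1 and Cdk1 were called higher with the set, and Pcna and Cdkn1a were not called. Mki67, the proliferation marker, was at 460 ± 60.5 without and 731 ± 121 with irradiation (SD, n = 3), a log2 change of 0.64 (limma adjusted p = 0.0166). Mki67 lost its call when unirradiated replicate 2, unirradiated replicate 3, irradiated replicate 1 or irradiated replicate 3 was left out (limma adjusted p up to 0.0689). Cyclin B1 (Ccnb1) had a change of 0.73, larger in value than that of any of the 9 genes. Cdk1 had a log2 change of 0.61 without overlap between groups (limma adjusted p = 0.0125) and was not recomputed under other settings. Pcna, the sliding clamp gene and another proliferation marker, read 1894.5, 1994.2 and 1433.2 without irradiation and 1662.2, 1737.3 and 1781.8 with it. Its groups overlapped, with a log2 change of -0.02 (95% confidence interval -0.26 to 0.21; limma adjusted p = 0.955), and its sign turned with quantile normalization (0.040). Cdkn1a, which encodes the cell cycle inhibitor p21, had a log2 change of 0.0093 (limma adjusted p = 0.977), which turned to -0.023 with median centring. Their part in the results above was not tested.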

How the data were processed

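RNA of 6 samples, extracted with Trizol and labelled with biotin per the labels' protocols, was hybridised to 1 array each. The authors deposited probe set intensities, linear in scale, and used BRB ArrayTools 3.3.0, per the series' design text. The software that summarised the probes and its scaling target: not given in the sources used here. Because trimmed means (2% off each end) agreed between arrays, the values were not rescaled. Of 31099 probe sets, 57 controls were dropped, and the 18632 at or above the 40th percentile of mean intensity were tested as log2(intensity + 16) with limma 3.58.1 in R 4.3.3 (lmFit, then eBayes with a variance trend on intensity), two-sided. Benjamini-Hochberg adjustment covered every tested probe set, and 0.05 was the threshold. Precision is limited by the number of arrays, with a median SE of 0.14 for a log2 change. The procedure was tested on simulated data.

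Symbols came from the platform annotation, which gave 20826 probe sets 1 symbol, 436 several and 9780 none; compared by Entrez ID with RefSeq for GRCr8, 0 differed. A gene was represented by its probe set with the highest mean. The genes and lists were chosen with earlier results of these data known. Beyond the set, genes named were those of the pathway list past the threshold, the 4 of smallest change in it, the 5 nearest profiles and context markers; later additions are marked in the text.

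Alternatives were pseudocounts of 1 and 64, quantile normalization, centring on medians, filters at none and at the 60th percentile, eBayes with no trend or robust, averaging a gene's probe sets, and leaving out each array. The second probe set of Mcm10 was tried after seeing the data.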

Additional observations from a re-analysis of the deposited data

How the results depend on the processing

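All 135 recomputed log2 changes of the 9 genes were above 0; 119 kept their side of the threshold, 13 of Mcm3 and Mcm5 fell short of it, and 3 of Mcm4 and Mcm10 passed it. Mcm7 passed in every setting tried (limma adjusted p up to 0.04). Without a filter on low values there were 223 changed probe sets, 1 called gene of the set and 5 of the pathway list; without an intensity trend there were 170, 1 and 4. Leaving out 1 array gave 201 to 284 changed probe sets, 1 to 3 called genes of the set and 5 to 7 of the pathway list, where fewer arrays give less power. The main values were 385, 3 and 8. Called genes of the set numbered 4 with probe sets averaged or with the second probe set of Mcm10, a setting chosen after seeing the data. Among the named genes that were recomputed, signs turned for 6, none of them called. With 1 array left out, Orc3 ranged from -0.13 to 0.069, Ccne2 from -0.11 to 0.047 and Lrwd1 from -0.12 to 0.051. Likewise, Mcmbp ranged from -0.023 to 0.25, Pcna from -0.17 to 0.066 and Cdkn1a from -0.012 to 0.037. Ccne2 was 0.086 with its probe sets averaged, Pcna 0.040 with quantile normalization and Cdkn1a -0.023 with median centring. The cause was not tested. Orc1 was below the filter at the 60th percentile. No paired analysis was possible because the labels give no replicate numbers shared between the groups.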
